A study of Mus musculus with 2 samples.

Results

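The genes described here encode the proteins of the mitochondrial ribosome, and were taken as every row of the expression table whose symbol begins with Mrpl or Mrps followed by a number. There were 78 of them among 10982 genes, 49 with Mrpl symbols for the large subunit and 29 with Mrps symbols for the small subunit. These are all 78 protein-coding genes with such symbols in GENCODE release M21, and each was at or above 1 FPKM in both libraries, so none was lost to a filter on low values. Gene expression was measured by RNA sequencing, with a protocol that names polyadenylated RNA selection but does not settle the library type, in 2 samples labelled as cardiomyocytes from the neonatal mouse heart. One sample is a negative control, and in the other the piRNA FERPIR was targeted with an antagomir, a modified antisense oligonucleotide that blocks a small RNA. The labels give no strain, dose or time, and a treatment label reads PBS for both samples. Only 5 of 17 cardiomyocyte marker genes had a value, as described at the end. Because each group has 1 library, nothing was tested and no error can be given, and every difference below describes these 2 libraries.

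Mitochondria carry their own ribosome, which translates only the few proteins encoded in mitochondrial DNA, all of them core subunits of the respiratory chain and ATP synthase. Its RNAs come from mitochondrial DNA, while its proteins are encoded in the nucleus, made in the cytosol and imported. Some descend from bacterial ribosomal proteins and others are found only in mitochondria. The heart depends heavily on oxidative metabolism, and inherited defects of several of these proteins, among them human MRPL3, MRPL44 and MRPS22, cause cardiomyopathy.

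FPKM is a fragment count divided by transcript length and library size, so levels of different genes can be compared. The log2 ratio used throughout is log2 of antagomir FPKM + 1 over control FPKM + 1, which understates differences of low genes, and a fold is the same ratio on a linear scale. A fold of 1.5 in either direction was used to count genes. The depth of the libraries is unknown, because the table holds no counts. In bulk RNA a smaller number of cells of a type and less RNA per cell cannot be told apart.

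To show what the genes at the ends of the range look like upstream, the 100 bases directly before the RefSeq start of transcription are given, 5′ to 3′ on the gene's strand, in genome build GRCm38.p6. They belong to the 4 members with the highest log2 ratios and to Mrps2, the lowest member whose 100 bases meet no annotated exon. Mrps18b and Mrpl32 were lower, but exons lie in their windows, which are not shown. Capitals mark the ETS-type motif CCGGAAG or its reverse complement CTTCCGG.
Mrpl52, chr14:54426809-54426908, plus strand: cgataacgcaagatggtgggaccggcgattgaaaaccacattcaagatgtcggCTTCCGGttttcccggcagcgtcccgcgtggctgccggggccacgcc
Mrps23, chr11:88204288-88204387, plus strand: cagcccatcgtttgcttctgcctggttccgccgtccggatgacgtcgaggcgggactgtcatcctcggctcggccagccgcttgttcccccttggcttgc
Mrps24, chr11:5707702-5707801, minus strand: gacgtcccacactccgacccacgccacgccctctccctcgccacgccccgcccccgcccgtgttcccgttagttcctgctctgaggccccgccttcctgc
Mrpl41, chr2:24975099-24975198, minus strand: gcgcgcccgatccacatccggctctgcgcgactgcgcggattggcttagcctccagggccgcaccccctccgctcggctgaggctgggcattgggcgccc
Mrps2, chr2:28467966-28468065, plus strand: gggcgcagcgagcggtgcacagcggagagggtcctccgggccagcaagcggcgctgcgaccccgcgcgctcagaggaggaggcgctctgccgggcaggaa

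Of the members, 69 had a promoter entry of 250 bases before and 50 after a RefSeq start. The ETS-type motif, searched on both strands, was in 26 of these 69 (37.7%), in 22.3% of the 7975 counted genes with an entry and in 8.86% of all 32851 promoters. In Mrps23 the match lies in the window but outside the 100 bases shown, and among the lowest members Mrps18b has a match and Mrpl32 and Mrps2 have none. The median log2 ratio was 0.39 for members with a match and 0.11 for those without, where the same medians over the counted genes were -0.04 and -0.05. A YY1-type motif, AAGATGGC or GCCATCTT, was in 12 members (17.4%), against 5.83% of the counted genes and 2.75% of all promoters, with medians of 0.18 with and 0.25 without a match. The palindromic NRF-1 consensus was in 3 members (4.35%), against 2.57% of the counted genes and 0.97% of all promoters, and an E-box, CACGTG, in 5 (7.25%), against 12.3% and 7.15%. The ETS-type and YY1-type letters share AAG and can overlap in a promoter. A match describes the letters only.

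As a group these genes had somewhat higher FPKM in the antagomir library. The log2 ratio was above 0 in 60 of 78 members (76.9%), where 46% of the 10201 genes counted, those reaching 1 FPKM in either library, were above 0. The members' median log2 ratio was 0.23, against -0.05 over all these genes. Once a trend with transcript length and GC content was removed, 47 of 78 members were above 0, against 4643 of 10192 genes. The members' summed FPKM went from 2338 in the control to 3054 in the antagomir library, from 0.79% to 0.98% of all FPKM in the table. Most single differences were small, with 61 of 78 members within 1.5-fold, a share near that of all genes, 7733 of 10201. At least 1.5-fold higher were 14 members (17.9%), against a background of 10.8% of all genes, and at least 2-fold higher were 3, against a background of 2.88%. At least 1.5-fold lower were 3 members (3.85%), against 13.4%, and 1 was at least 2-fold lower, against 3.79%. The 3 members past 2-fold, Mrpl52, Mrps23 and Mrps24, had log2 ratios of 0.87, 0.83 and 0.62 with the length and GC trend removed, so none of them stayed past 2-fold. Rescaled to TPM they were at 1.21, 0.99 and 0.94, and Mrpl52 alone of these 3 stayed past it.

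**Figure D1:**
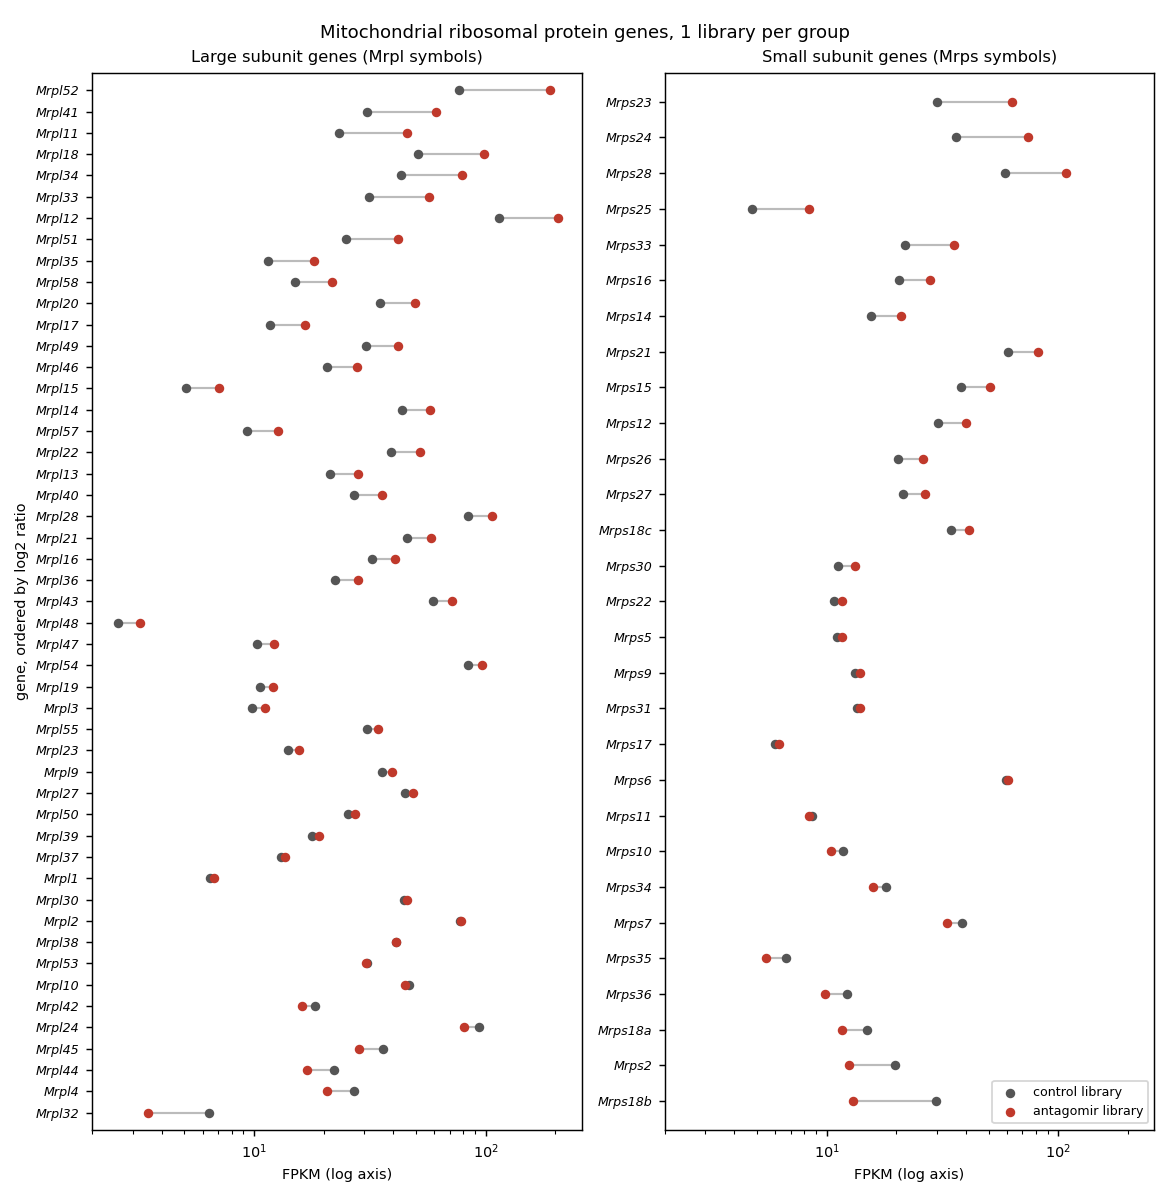
FPKM of every mitochondrial ribosomal protein gene in the control library (grey) and the antagomir library (red) on a log axis, with genes of each subunit ordered by log2 ratio and a line joining the 2 values. Mrpl52 and Mrps23 stand at the top of the 2 panels, and Mrpl32 and Mrps18b, lower in the antagomir library, at the bottom.

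The order of abundance within the group was much alike in the libraries, with Spearman's rho of 0.94 across the 78 members, which are genes of the same 2 libraries and not replicates. The same coefficient over all counted genes was 0.94. Levels of large subunit genes ran from 2.60 FPKM for Mrpl48 to 115 FPKM for Mrpl12 in the control library, a 44.2-fold range, and from 3.23 to 206 FPKM in the antagomir library for the same 2 genes. Small subunit genes ran from 4.77 FPKM for Mrps25 to 60.9 FPKM for Mrps21 in the control library, and from 5.47 FPKM for Mrps35 to 108 FPKM for Mrps28 in the antagomir library. Proteins that stand in the ribosome in fixed numbers thus had mRNA levels that differed by more than 10-fold.

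In the large subunit, Mrpl52 had the highest log2 ratio of all members. This gene, which encodes a protein found in mitochondria and not in bacteria, lies on chromosome 14 from 54426909 to 54429756 and stood at 77.0 FPKM in the control and at 189 FPKM in the antagomir library (2.44-fold higher). Its log2 ratio of 1.29 was at percentile 98.8 of the counted genes. Mrpl41 was 1.96-fold higher, with 30.7 and 61.0 FPKM. Mrpl18, of the bacterial L18 family, was 1.92-fold higher with 50.9 and 98.6 FPKM, and its exons overlap those of the chaperonin gene Tcp1 on the opposite strand, so reads cannot be told apart if strand was not used. All 3 genes were above 30 FPKM in both libraries, far from the minimum for counting.

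The ribosomal stalk, the flexible arm that recruits translation factors, is represented by 3 genes whose values differed in direction. Mrpl12, which encodes the stalk protein itself, was the most abundant member in both libraries, with 115 and 206 FPKM, 1.79-fold higher. Mrpl11, at the base of the stalk, had 23.2 and 45.9 FPKM, 1.93-fold higher. Mrpl10, which anchors Mrpl12 copies to the ribosome, had 46.7 and 44.8 FPKM, a log2 ratio of -0.06.

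Mrpl33, Mrpl34, Mrpl35 and Mrpl36, which encode small proteins of bacterial families, all had log2 ratios above 0. Mrpl34, on chromosome 8 from 71464959 to 71465747, had 43.2 and 79.3 FPKM, 1.82-fold higher, and its log2 ratio of 0.86 became 0.21 once the trend of log2 ratios with length and GC content was removed. Mrpl33 had 31.3 and 56.9 FPKM (1.79-fold), Mrpl35 had 11.5 and 18.1 FPKM (1.52-fold), and Mrpl36 had 22.4 and 28.3 FPKM (1.25-fold), or a log2 ratio of -0.05 once that trend was removed. Mrpl32, next in the numbering, was the member of the large subunit with the lowest log2 ratio, -0.72, going from 6.38 FPKM in the control library to 3.47 FPKM with the antagomir. The protein it encodes is cut by the mitochondrial m-AAA protease before it enters the ribosome, a step needed for assembly.

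Around the peptide exit tunnel the values were mixed. Mrpl22, whose protein lines the tunnel, had 39.2 and 51.97 FPKM, or log2 ratios of 0.40 as measured and -0.08 once the length and GC trend was removed. Mrpl23 had 14.03 and 15.6 FPKM, a log2 ratio of 0.15. Mrpl24 was lower, with 93.8 and 80.8 FPKM, and so was Mrpl45, which holds the ribosome to the inner membrane where its products are inserted, with 35.97 and 28.4 FPKM (1.26-fold). Mrpl4, of a family that reaches into the tunnel wall, was 1.29-fold lower, with 26.96 and 20.6 FPKM. The median log2 ratio of the 4 tunnel exit genes Mrpl22, Mrpl23, Mrpl24 and Mrpl45 was -0.03, close to the -0.05 of all genes.

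In the central protuberance, the part of the large subunit that faces the head of the small one, 3 of 4 listed genes were above 0. Mrpl46 had 20.6 and 27.7 FPKM (1.33-fold) and Mrpl40 had 26.95 and 35.6 FPKM (1.31-fold). Mrpl38 had 40.94 and 40.85 FPKM, nearly equal. Mrpl48, the least abundant member, had 2.60 and 3.23 FPKM. Once the length and GC trend was removed the log2 ratios of Mrpl46, Mrpl40, Mrpl38 and Mrpl48 were 0.11, 0.11, -0.32 and 0.34. Mrpl58, which encodes a peptidyl-tRNA hydrolase that is built into this region and can release stalled chains, was 1.42-fold higher with 15 and 21.8 FPKM.

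A further 5 large subunit genes lay within 1.5-fold. Mrpl44 was named by the rule given below, and the others were chosen after their values were seen. Mrpl2 had 77.6 and 78.4 FPKM, Mrpl3 had 9.79 and 11.1 FPKM, and Mrpl16 had 32.3 and 40.7 FPKM, with log2 ratios of 0.01, 0.17 and 0.32. Mrpl27 had 44.8 and 48.7 FPKM, 1.08-fold higher. Mrpl44, which encodes a protein with a ribonuclease III fold, was 1.29-fold lower, with 22.3 and 17.01 FPKM. Of the 2 large subunit genes tied to human cardiomyopathy above, Mrpl3 was thus slightly higher and Mrpl44 lower, each within 1.5-fold.

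Among the other large subunit genes, Mrpl51 was 1.65-fold higher with 25.04 and 41.9 FPKM. Between 1.3-fold and 1.5-fold higher were Mrpl13, Mrpl14, Mrpl15, Mrpl17, Mrpl20, Mrpl49 and Mrpl57, whose log2 ratios ran from 0.39 for Mrpl13 to 0.50 for Mrpl20. Once the length and GC trend was removed Mrpl14 was at -0.24 and Mrpl20 at 0.08. The others then ran from 0.32 for Mrpl49 to 0.64 for Mrpl17. Mrpl21, Mrpl28 and Mrpl43 had log2 ratios of 0.34, 0.34 and 0.26, and Mrpl28 was among the most abundant members with 83.8 and 106 FPKM. Log2 ratios from 0.04 to 0.23 were found for Mrpl1, Mrpl9, Mrpl19, Mrpl30, Mrpl37, Mrpl39, Mrpl47, Mrpl50, Mrpl54 and Mrpl55. Mrpl53 was at -0.02 and Mrpl42 at -0.18. Once the trend was removed, the genes from 0.04 to 0.23 ran from -0.50 for Mrpl54 to 0.30 for Mrpl19. Mrpl53 was then at -0.54 and Mrpl42 at -0.12. In all, 40 of 49 large subunit genes were above 0, against 46% of all counted genes. Past 1.5-fold were 9 upwards, against a background of 10.8%, and 1, Mrpl32, downwards, against 13.4%. Once the trend was removed 31 of 49 were above 0, against 4643 of 10192 genes.

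In the small subunit the extremes lay further apart. Mrps23, particular to mitochondria and on chromosome 11 from 88204388 to 88211507, stood at 29.99 FPKM in the control and at 63.2 FPKM in the antagomir library (2.07-fold higher). Mrps24, of the bacterial S3 family at the entrance of the messenger channel, had 36.2 and 73.8 FPKM, 2.01-fold higher, and overlaps exons of Urgcp. Mrps28 had 59.1 and 107.7 FPKM (1.81-fold), Mrps25, which overlaps Nr2c2, had 4.77 and 8.42 FPKM (1.63-fold), and Mrps33 had 21.7 and 35.6 FPKM (1.61-fold). At the other end, Mrps18b, on chromosome 17 from 35910379 to 35916389, stood at 29.8 FPKM in the control and at 12.96 FPKM in the antagomir library (2.20-fold lower), with exons that overlap the antisense gene Gm16279. Its log2 ratio of -1.14 was at percentile 2.63 of the counted genes. Mrps2, which encodes a protein of the S2 family between the head and body, had 19.7 and 12.5 FPKM, 1.53-fold lower, and came under 1.5-fold with ratios centred on the median of all genes (log2 ratio -0.56).

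Mrps18b has 2 relatives, all 3 related to bacterial S18, and they sit in different places. Mrps18c occupies the bacterial position in the small subunit and had 34.4 and 41.05 FPKM, or log2 ratios of 0.25 as measured and -0.16 once the length and GC trend was removed. Mrps18a, despite its symbol, belongs to the large subunit, and had 14.99 and 11.6 FPKM, a log2 ratio of -0.34. The 3 relatives thus ran from the lowest log2 ratio of all members to near the median of the group.

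At the decoding centre, where codon and anticodon pair, Mrps12 had 30.3 and 39.9 FPKM, or log2 ratios of 0.39 as measured and -0.06 once the trend was removed. Mrps5, which with Mrps24 lines the messenger's entrance, had 11.1 and 11.7 FPKM, a log2 ratio of 0.06. Mrps21 and Mrps6, among the most abundant small subunit genes, had 60.9 and 81.5 FPKM and 59.4 and 60.8 FPKM. Mrps22, the third gene tied to human cardiomyopathy above, had 10.7 and 11.7 FPKM. Mrps14, Mrps15 and Mrps16 had log2 ratios of 0.42, 0.41 and 0.42, and Mrps26, Mrps27 and Mrps30 of 0.34, 0.30 and 0.22. Mrps9, Mrps17 and Mrps31 had log2 ratios of 0.05 each, and Mrps11 was at -0.04. Slightly lower were Mrps7, Mrps10, Mrps34 and Mrps35, from -0.15 for Mrps10 to -0.24 for Mrps35. Mrps36, whose protein is now known as a subunit of the 2-oxoglutarate dehydrogenase complex and not of the ribosome, had 12.2 and 9.83 FPKM, a log2 ratio of -0.29 as measured and of -0.77, past 1.5-fold, once the trend was removed.

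The comparison of the subunits gave a higher median for the large one by a margin that was small beside the spread among genes. The median log2 ratio was 0.26 over 49 Mrpl genes, with an SD across genes of 0.39, and 0.12 over 29 Mrps genes, with an SD of 0.47. Above 0 were 81.6% of Mrpl and 69.0% of Mrps genes, against 46% of all counted genes. At least 1.5-fold higher were 9 (18.4%) and 5 (17.2%), against a background of 10.8%. At least 1.5-fold lower were 1 (2.04%) and 2 (6.90%), against 13.4%. With the length and GC trend removed, 7 and 3 were higher by this fold, against 7.82%, and 1 and 3 lower, against 13.2%. The difference of the medians was then 0.046. The summed FPKM of Mrpl genes went from 1659 to 2199, a ratio of 1.33, and that of Mrps genes from 679 to 855, a ratio of 1.26, so the Mrpl sum was 2.44 times the Mrps sum in the control and 2.57 times in the antagomir library. The median level of Mrps genes was nevertheless lower in the antagomir library, 15.9 against 19.7 FPKM, whereas their median log2 ratio was above 0. With Mrps30 and Mrps18a counted in the large subunit, where their proteins sit, and Mrps36 left out, the medians were 0.23 and 0.18, and their difference went from 0.15 to 0.05. Genes of 2 libraries are no replicates, and the difference between the subunits was not tested.

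Grouped by descent, every class had a median above 0 as measured, that of small subunit genes with a bacterial relative falling to -0.05 once the length and GC trend was removed, and no difference between classes was tested. The 29 Mrpl genes with a bacterial relative had a median of 0.32 on the log2 scale, with 25 above 0 and 6 at least 1.5-fold higher. The 19 Mrpl genes particular to mitochondria had one of 0.24, with 14 above 0 and 3 at least 1.5-fold higher. In the small subunit the 15 genes with a bacterial relative had a median of 0.06, with 11 above 0 and 1, Mrps24, at least 1.5-fold higher. The 10 small subunit genes particular to mitochondria had a median of 0.26, with 8 above 0 and 3, Mrps23, Mrps25 and Mrps33, at least 1.5-fold higher. These 10 include Mrps30, whose protein sits in the large subunit. The background for at least 1.5-fold higher was 10.8%. By share past this fold, genes with a bacterial relative came first among Mrpl genes and second among Mrps genes. At least 1.5-fold lower were Mrpl32 and Mrps2, both with a bacterial relative, against a background of 13.4%. Left out as unclassified were Mrpl55, Mrps28, Mrps18a, Mrps18b and Mrps36. Mrps18a and Mrps18b, also relatives of a bacterial protein, both lie below the median of the small subunit genes with a bacterial relative, so that median depends on leaving them out.

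Transcript length moved with the result. Log2 ratio and transcript length had a Spearman coefficient of -0.30 over 10192 genes, and the members are short, with a median longest transcript of 1867 nucleotides against 3343 over all genes. In the shortest of 5 equal groups of genes, which held 40 of the 78 members, the median log2 ratio was 0.33 for members and 0.26 for all genes. In the next group it was 0.05 for 13 members and 0.01 for all genes. In the 3 groups of longer transcripts the medians of 13, 9 and 3 members were 0.23, 0.17 and 0.47, and those of all genes -0.07, -0.14 and -0.20. Within the members rho was -0.13. With the trend over length and GC content removed, the members' median was 0.05 against -0.05 over all genes, 10 members (background 7.82%) were at least 1.5-fold higher and 4 (background 13.2%), Mrps36 added, at least 1.5-fold lower. Of the 14 members higher before, 9 stayed past the fold, and Mrpl12, Mrpl34, Mrpl41, Mrps28 and Mrps33 came under it.

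**Figure D2:**
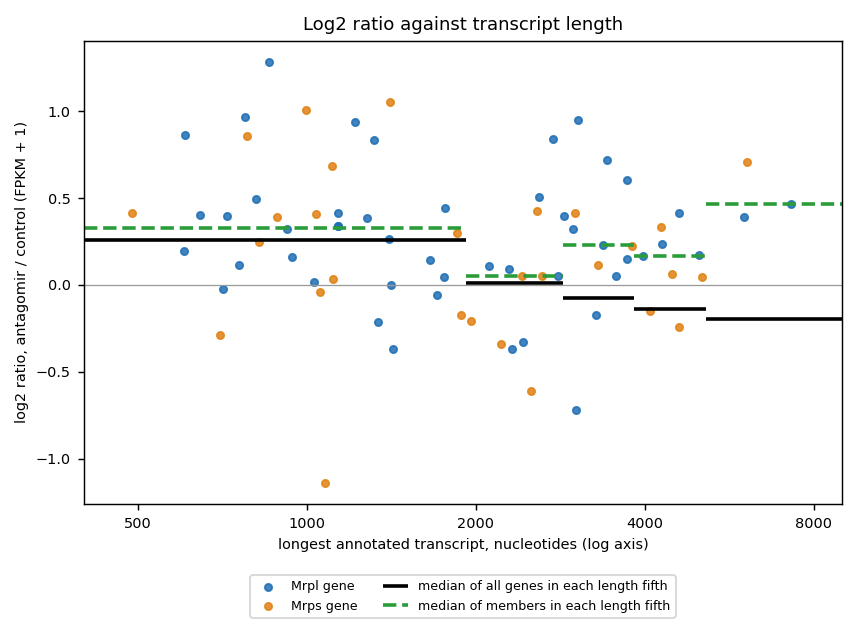
Log2 ratio of each Mrpl (blue) and Mrps (orange) gene against the length of its longest annotated transcript on a log axis, with the median of all genes (black) and of members (green, dashed) in each of 5 equal groups of genes by length. In the shortest group the medians are 0.26 and 0.33, and in the longest, which holds 3 members, -0.20 and 0.47.

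The proteins of this ribosome that carry other names stood in the same range. Gadd45gip1, a large subunit protein also known as CRIF1, had 11.3 and 21.2 FPKM, 1.81-fold higher. Chchd1 had 53.8 and 80.7 FPKM (1.49-fold), and Dap3, a GTP-binding protein of the small subunit, had 19.5 and 22.7 FPKM. Ptcd3 and Aurkaip1 had log2 ratios of 0.02 and -0.01. The median of these 5 genes was 0.21, and exons of 4 of them overlap those of another gene. Gadd45gip1 alone of the 5 (20%) was at least 1.5-fold higher, against a background of 10.8%. Once the length and GC trend was removed the median was 0.03. Gadd45gip1 was then at 0.78, Dap3 at 0.31, Chchd1 at 0.03, Ptcd3 at 0.02 and Aurkaip1 at -0.35.

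Factors that build the ribosome lay close to all genes. Of 23 assembly factors counted, 13 were above 0, with a median log2 ratio of 0.04. Past 1.5-fold were 2 (8.7%) in the higher direction, against a background of 10.8%, and none in the lower, against 13.4%. Malsu1, which keeps the immature large subunit from joining the small one, had 10.4 and 20.1 FPKM, 1.86-fold higher, and Mrm2, a methyltransferase of the large ribosomal RNA, had 5.26 and 9.93 FPKM, 1.75-fold higher, and both overlap another gene. Tfb1m, which methylates the small ribosomal RNA and overlaps exons of Tiam2, had 13.8 and 9.86 FPKM (1.37-fold lower). Nsun4, another RNA methyltransferase, had 2.17 and 1.26 FPKM (1.398-fold lower).

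For 15 factors that work on the ribosome during translation the median was 0.02, with 8 above 0. In each direction 1 (6.7%) was past 1.5-fold, against a background of 10.8% for higher and 13.4% for lower. Tufm, the elongation factor that brings aminoacyl-tRNA, had 25.8 and 15.4 FPKM, 1.64-fold lower. Tsfm, its exchange factor, and Gfm1, the translocase, had log2 ratios of -0.03 and 0.02. Lrpprc, which with Slirp stabilises mitochondrial mRNAs, had 18.3 and 12.3 FPKM (1.45-fold lower), and Slirp had 12.02 and 8.54 FPKM (1.36-fold lower). Oxa1l, which inserts the products into the inner membrane, and Mrrf, the recycling factor, were 1.304-fold and 1.31-fold lower. Exons of Slirp, Oxa1l and Mrrf overlap those of another gene, and those of Tufm and Lrpprc do not. Pdf, which removes the formyl group from new proteins, was 2.85-fold higher, with 3.22 and 11.01 FPKM, but overlaps exons of Cog8 and Vps4a.

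**Figure D3:**
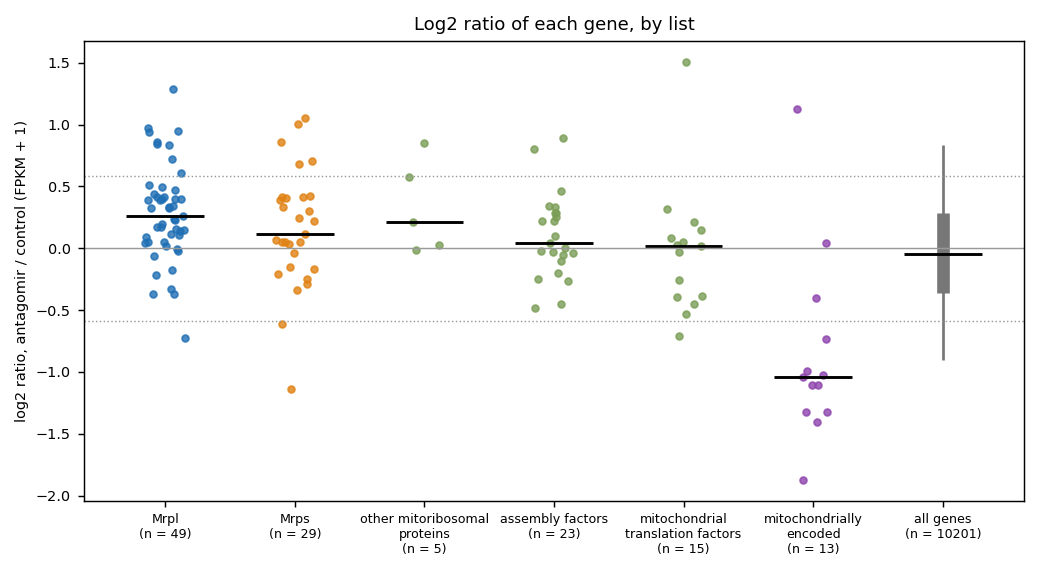
Log2 ratio of each gene (points) in the large and small subunit and in lists of other genes of mitochondrial translation, with the median as a black bar, and for all genes the middle 50% (thick bar) and 90% (thin bar). Dotted lines mark a 1.5-fold difference. The medians are 0.26 for Mrpl, 0.12 for Mrps and -1.04 for the mitochondrially encoded genes.

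Most of the messages that this ribosome translates had lower FPKM in the antagomir library. For the 13 mitochondrially encoded genes the median was -1.04 on the log2 scale, and 10 were at least 1.5-fold lower, against a background of 13.4%. The exceptions were mt-Nd6, 2.18-fold higher with 57.5 and 127 FPKM, mt-Co2 with a log2 ratio of 0.05, and mt-Nd3 with one of -0.40. Exons of mt-Nd6 overlap those of mt-Nd5. Once the length and GC trend was removed these 3 genes were at 0.41, -0.47 and -1.35. The median of the 13 was then -1.50, with 11 at least 1.5-fold lower, against a background of 13.2%. The list's summed FPKM went from 18036 to 9781, a ratio of 0.54, while that of the 78 ribosomal protein genes had a ratio of 1.31. The nuclear genes for respiratory chain subunits, which join the mitochondrial products in the same complexes, had a median of 0.48 over 80 genes, with 33 (41.3%) at least 1.5-fold higher, against a background of 10.8%. Cytosolic ribosomal protein genes had a median of 0.53 over 80 genes, with 33 (41.3%) at least 1.5-fold higher. Both comparison lists have shorter transcripts than the mitochondrial ribosomal genes, with medians of 1026 nucleotides for respiratory chain and 1100 for cytosolic ribosomal genes. With the length and GC trend removed the medians were 0.17 for respiratory chain and 0.20 for cytosolic ribosomal genes, against 0.05 for the mitochondrial ribosome. The counts at least 1.5-fold higher were then 17 and 13, against a background of 7.82%. The differences between these lists were not tested.

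Many of these genes share a start region with a neighbour. A protein-coding gene on the opposite strand starts within 1000 bases of 33 of the 78 members (42.3%), against 17.8% of all counted genes. For 29 members this neighbour is another kind of gene with a value, and in 18 of these pairs the log2 ratios had the same sign. The neighbours' median was 0.01. Past 1.5-fold were 4 in the higher direction, against a background of 10.8%, and 1, Wdfy1 beside Mrpl44, in the lower, against 13.4%. Lrrc46, Cyb5rl, Zfp189 and Zfp661, neighbours of Mrpl10, Mrpl37, Mrpl50 and Mrps5, were under 1 FPKM in both libraries but are included. Across the 29 pairs rho was 0.25, for genes of the same libraries of which several pairs also share exons. Fau, which starts 59 bases from Mrpl49 and encodes a cytosolic ribosomal protein, had 774 and 1406 FPKM, while Mrpl49 had 30.4 and 41.7 FPKM. Ndufs6, a subunit of complex I that starts 29 bases from Mrpl36, had 42.9 and 77.0 FPKM. Ppp1r10, which starts 45 bases from Mrps18b, had 8.73 and 7.57 FPKM, a log2 ratio of -0.18 beside the -1.14 of Mrps18b. Psma2, a proteasome subunit gene 75 bases from Mrpl32, had 51.6 and 63.2 FPKM, a log2 ratio of 0.29 beside -0.72. The 2 members at least 1.5-fold lower that have such a neighbour had neighbours within 1.5-fold, where 7733 of the 10201 counted genes also lay. Fau and Ndufs6 had log2 ratios of 0.86 and 0.83, or 0.27 and 0.38 once the length and GC trend was removed. Ppp1r10 and Psma2 were then at -0.14 and 0.29.

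**Figure D4:**
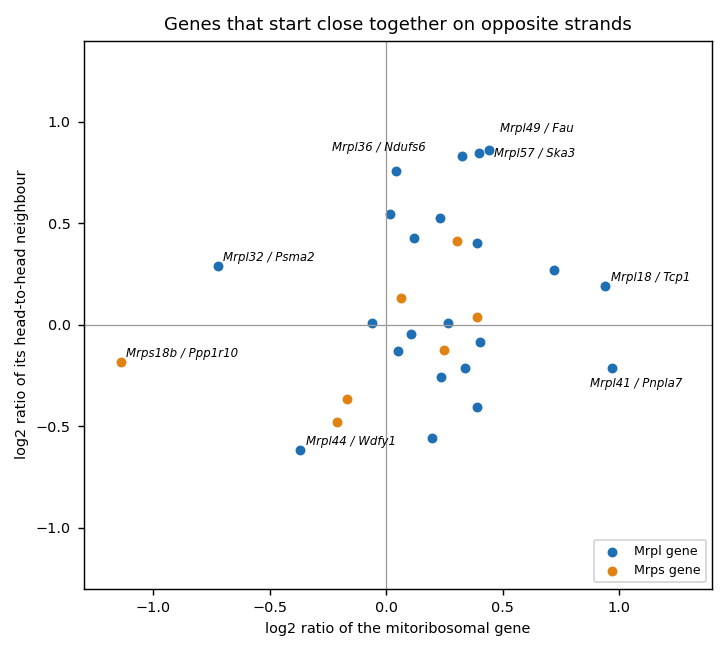
Log2 ratio of 29 mitochondrial ribosomal genes against that of the protein-coding gene on the opposite strand that starts within 1000 bases, each point 1 pair. Mrps18b at -1.14 and Mrpl32 at -0.72 have neighbours at -0.18 and 0.29.

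A single pair joins both subunits. Mrpl46 and Mrps11 lie head to head on chromosome 7, from 78775236 to 78783531 and from 78783119 to 78792989, so that their exons overlap. Mrpl46 had 20.6 and 27.7 FPKM and Mrps11 had 8.66 and 8.39 FPKM, log2 ratios of 0.41 and -0.04. The members as a whole are spread over 17 chromosomes, with 11 on chromosome 11, and none lies on a sex chromosome. Exons of 33 members overlap those of another gene, and of the 14 members at least 1.5-fold higher 6 do so.

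Marker genes of the cell types that heart cultures can hold also differed between the libraries. Of 17 cardiomyocyte marker genes 5 had values, with summed FPKM of 23.9 (control) and 34.9 (antagomir), and the 12 others, Myh6, Actc1 and Ttn among them, were without one, which is not read as 0. Of the 5 with values 4 had log2 ratios above 0, among them Tnnt2, cardiac troponin T, with 1.48 and 8.19 FPKM. Nkx2-5 had 13.7 and 16.4 FPKM, or log2 ratios of 0.24 as measured and -0.23 once the length and GC trend was removed. Nppb was lower, with 6.86 and 5.28 FPKM. Of 8 fibroblast markers 6 had values, with sums of 548 and 341 FPKM. At least 1.5-fold lower were 3, against a background of 13.4%, among them Col1a1 with 58.5 and 24.2 FPKM. Pdgfra alone of these 6 was higher, with 1.19 and 1.66 FPKM. Of 4 smooth muscle markers 3 had values, with sums of 1325 and 885 FPKM, nearly all of it Acta2, which was 1.54-fold lower. The other markers with values were higher, Tagln with 18.2 and 37.8 FPKM and Cnn1 with 1.79 and 2.91 FPKM, and the median log2 ratio of the list was 0.49. Of 5 leukocyte markers 1 had a value, Lyz2, with 3.28 and 4.44 FPKM, and of 5 red cell markers 2, with sums of 14.4 and 20.8 FPKM. None of 4 endothelial markers had one. The part of these markers' differences in the values of the ribosomal genes was not tested.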

How the data were processed

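RNA was measured in 2 libraries, 1 per group, grouped by the sample titles. Libraries of bead-selected polyadenylated RNA came from a stranded kit, per the labels' protocols, which also list adaptor ligation at both ends, so the library type is not settled. The authors deposited FPKM per gene; per the submitters' processing notes the tools were cutadapt, HISAT2 and StringTie 1.3.3, and the build GRCm38. Which annotation and settings they used, and whether strand was used, is not given in the sources used here. The table had 10992 rows, all with more than 0.5 FPKM in the higher library. Values of 10 symbols on more than 1 row were summed, leaving 10982 genes, of which 10201 reached 1 FPKM and were counted. Low values did not fall on steps of whole reads: with the best step, 12.7% and 13.7% of values lay within 0.05 of a whole multiple, so depth is unknown. 

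Log2 ratios used a pseudocount of 1. Transcript lengths, GC content (of the longest transcript), start sites and exon overlaps on either strand came from GENCODE M21 on the same build. The length and GC trend was a least-squares fit with linear and squared terms of log2 length and GC content over all counted genes. Promoters came from RefSeq (GRCm38.p6). The rule for named genes took the 8 highest and 8 lowest log2 ratios among members reaching 5 FPKM, members 1.5-fold lower or 2-fold higher, the 3 most and 3 least abundant members of each subunit and a set of members chosen for their place in the ribosome, 36 in all. Other members and all neighbours and promoters named were chosen after their values were seen. The members and lists were chosen with earlier results of these data known. Ict1, Gtpbp5 and Wbscr16 are older symbols of genes listed under other names. Python 3.11.15, pandas 2.3.3, numpy 2.4.6 and matplotlib 3.10.9 were used, and the scripts were tested on simulated data.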

Additional observations from a re-analysis of the deposited data

How the results depend on the processing

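The 6 summary values of the subunits (medians, their difference and counts past 1.5-fold) were recomputed with pseudocounts of 0.1 and 0.01, with no minimum or 5 FPKM, as TPM, centred on the median of all genes, rescaled without mitochondrially encoded, hemoglobin and cytosolic ribosomal protein genes, with length trends removed, without overlapping genes, with subunits by structure and as means. No median or difference changed sign. Taking a move of over 0.1 on the log2 scale, or of over 1.5 times for a count, 6 of 68 recomputed values moved. With the length and GC trend removed the Mrpl median was 0.080, the difference between subunits 0.046 and the count of Mrps genes at least 1.5-fold higher 3. With the trend over the length of the median protein-coding transcript alone removed the Mrps median was 0.010. Without genes that overlap others, 27 Mrpl and 18 Mrps genes were left, of which 5 and 3 were at least 1.5-fold higher, against a background of 11.3%. With all genes kept they were 9 of 49 and 5 of 29, against 10.8%, so these 2 counts moved along with the number of genes left. As TPM the median of all genes was -0.13, and the Mrpl and Mrps medians were 0.21 and 0.04. The calls for at least 1.5-fold lower ran from 2 to 4. Of the 36 named genes 26 kept their sign in every alternative, and Mrpl22, Mrpl23, Mrpl28, Mrpl38, Mrps5, Mrps6, Mrps12, Mrps17, Mrps18c and Mrps21 did not. Of 13 named genes past 1.5-fold, 8 stayed past it in every alternative. Mrpl12, Mrpl34, Mrpl41 and Mrps28 did not with the length and GC trend removed, nor Mrps2 with centred ratios. Without replicates or depth, no counting or biological error can be given. No paired analysis was possible because each group has 1 library.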
